A study of Mus musculus with 4 samples.

Results

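The genes described here are 37 components of T cell receptor signalling: kinases, adaptors, phosphatases, ubiquitin ligases, the NF-kB and NFAT branches and costimulatory receptors. They were listed by symbol, without the CD3 chains of the receptor itself, and each was read from the row of the deposited table that the platform annotation assigns to that symbol alone. Of the 37 genes, 35 had such a row, and each of these had exactly 1, out of 19938 genes measured in this way. Lck and Nfkb1 had none and were not analysed here.

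The values come from DN4 thymocytes of 4 mice with floxed Ikaros alleles (Ikf/f), all given 50 mg/kg tamoxifen in sunflower oil by daily intraperitoneal injection for 4 days and taken 24 h after the last dose. The 2 Cre+ mice, 129 and 135, were Ikf/f Rosa26-CreERT2+ and carried a tamoxifen-inducible Cre recombinase at the Rosa26 locus, a site active in most cell types, so that its expression was not limited to thymocytes. The 2 Cre- mice, 131 and 137, were Ikf/f without the recombinase, so both groups shared the floxed alleles and the tamoxifen. The treatment text attached to all 4 samples names the Cre+ genotype, and the Cre- status was taken from the sample titles and the series' design text, which also states that Ikaros protein was lost in the sorted Cre+ cells by western blot. DN4 cells are immature thymocytes with neither CD4 nor CD8 on their surface that have passed selection for a rearranged beta chain. Total RNA of each mouse gave 1 array, and 2 arrays a group limit the precision of every value.

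Signals from the pre-T cell receptor and the T cell receptor start with kinases of the Src family, which phosphorylate the CD3 chains, and with ZAP-70, which binds those chains and phosphorylates the scaffolds LAT and SLP-76. The scaffolds gather exchange factors and a phospholipase, from which the RAS, calcium and protein kinase C branches lead to MAP kinases, NFAT and NF-kB. Phosphatases, the kinase CSK and ubiquitin ligases hold the pathway in check, and in the thymus its strength decides survival and lineage at each checkpoint. Ikaros is a zinc-finger transcription factor of lymphocytes, known from mouse studies to set the threshold of T cell activation.

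The 4 arrays had medians between 6.85 and 6.88 on the log2 scale of RMA, the authors' normalization, and correlations between arrays across all probe sets ran from 0.994 to 0.997. Ikzf1, the gene of Ikaros, was at 12.06 and 11.99 on the Cre+ arrays and at 12.07 and 12.11 on the Cre- arrays, a difference of -0.07 (SE 0.04; limma, adjusted p = 0.925). Which exons its probes cover was not analysed here, so that it does not check the labels. Thymocyte markers were present on every array: the 8 measured genes of that list, among them Ptcra, Cd3e and Thy1, had medians of 12.31 and 12.21 on the Cre+ arrays against 12.02 and 11.97 on the Cre- arrays. Of these 8 genes, 7 had higher means in Cre+, and 3 (Cd3e, Cd3g and Rag1) were called in the restricted test described below. That list shares Cd3e, Cd3g and Ptcra with the pathway list used further on. Transcripts of later stages were present too, with Cd8b1 at 11.50 and 11.59 on the Cre+ arrays and at 11.72 and 11.91 on the Cre- arrays. The 5 measured markers of double-positive thymocytes did not share a direction: the means of 2, Cd4 (by 0.54) and Arpp21 (by 0.08), were higher in Cre+, and those of Cd8a, Cd8b1 and Themis2 were lower. All 7 measured markers of mature and gamma-delta T cells had lower means in Cre+, with summed linear values of 2007 and 1770 on the Cre+ arrays against 2380 and 2112 on the Cre- arrays, and 0 of them were called in the restricted test described next. Of 10 macrophage and dendritic cell markers, 7 means were higher and 3 lower, and the sums were 1082 and 1357 for Cre+ against 1004 and 1213 for Cre-. Among these, Lyz2, the lysozyme gene, was called (7.56 and 7.59 for Cre+ against 6.79 and 6.29 for Cre-, restricted adjusted p = 0.0206 with limma), while Csf1r, the receptor gene that defines macrophages, lay between 5.52 and 5.63 on all 4 arrays. Without Lyz2, the sums of the other 9 were 893 and 1164 for Cre+ against 894 and 1134 for Cre-. The sums of 7 natural killer markers were 644 and 657 for Cre+ against 1221 and 1097 for Cre-, and without Nkg7, which was called, those of the other 6 lay between 171 and 176 on all 4 arrays. The sums of 6 B cell markers were 1519 and 1377 for Cre+ against 1297 and 1286 for Cre-; Cd79b made up most of them, and the other 5 all had lower means in Cre+. Many of these markers had low values. Means lay below the median of all probe sets for 6 of the 10 macrophage and dendritic cell, 6 of the 7 natural killer and 5 of the 6 B cell markers. The part of the cell types named here in the differences below was not tested, and in sorted cells in bulk, fewer cells of a type and less RNA per cell cannot be told apart.

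The question of the design was which transcripts differ once Ikaros is deleted. Among the signalling genes, 1 passed a test: the Src family kinase gene Fyn was higher in Cre+ cells. With limma over all 35556 probe sets, 0 of the 35 members had an adjusted p under 0.05, as did 0 probe sets of the whole table (0%), while 5 members had an unadjusted p under 0.05 (14.3%, against 6.86% of all genes and 6.63% of all probe sets). SEs are from this fit throughout, also where a restricted p-value stands beside them. A second fit and adjustment used the 21789 probe sets that carry a single symbol and is called the restricted test here. It called 1 of 35 members, against 266 of its probe sets (1.22%); by direction, 1 member was called higher (0.936% of probe sets) and 0 lower (0.285%). In it, 8 of the 35 members had an unadjusted p under 0.05, against 9.33% of its probe sets. The median difference of the 35 members, Cre+ minus Cre-, was 0.02 on the log2 scale, with 21 higher and 14 lower means, and the median over all genes was -0.01. The 2 groups of mice did not overlap for 15 members (42.9%), of which 6 lay above and 9 below the Cre- mice, against 36.4% of all genes, 36.2% of probe sets with a single symbol and 33.3% of all probe sets. All 35 members had mean values above that of the median gene, with a median of 10.40 against 7.03 for all genes. The shares in this paragraph were not compared with those of genes at similar levels.

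**Figure D1:**
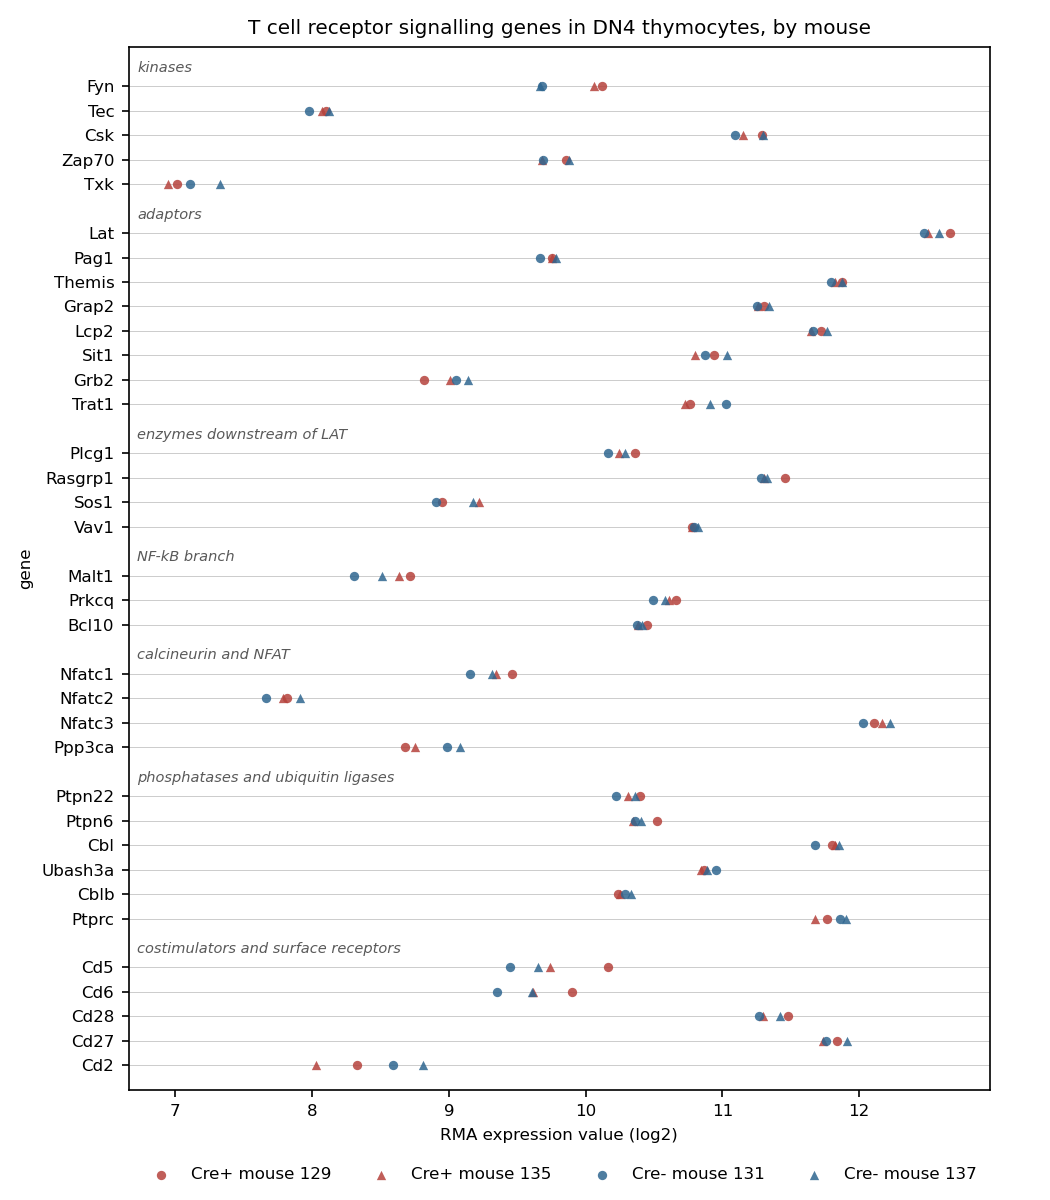
RMA expression values (log2, x axis) of the 35 measured members in each of the 4 mice, with genes down the y axis grouped by role, Cre+ mice in red and Cre- mice in blue. Fyn shows 2 Cre+ values (10.12 and 10.06) clear of 2 Cre- values (9.68 and 9.66), while the 4 values of most other genes lie close together or interleave.

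Fyn encodes one of the Src family kinases that act first in thymocytes, beside LCK. The values were 10.12 and 10.06 on the Cre+ arrays and 9.68 and 9.66 on the Cre- arrays. Both pairs lay close together, with a gap between the groups several times the gap within either. Cre+ exceeded Cre- by 0.42 in log2 units (SE 0.06, 1.34-fold), with limma's adjusted p = 0.270 over all probe sets and 0.0320 in the restricted test. The difference stayed between 0.39 and 0.45 when each mouse was left out in turn, but the restricted call was lost without mouse 129 (limma, adjusted p = 0.188), without mouse 135 (0.0674) and without an intensity trend in the variance (0.0831).

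The bases before the start of Fyn and of Cd5 are shown because, among the members whose sequence could be shown and whose RefSeq promoter window held at least 150 bases before the annotated gene, these had the smallest p-values. The sequences are from RefSeq's GRCm38.p6 assembly, 5′ to 3′ on the strand of the gene. Capitals mark the letters TGGGAA, the core of the motif that Ikaros family proteins bind, read on either strand (TTCCCA on the other).
Fyn (chr10:39369549-39369742, plus strand, the bases just before the annotated gene): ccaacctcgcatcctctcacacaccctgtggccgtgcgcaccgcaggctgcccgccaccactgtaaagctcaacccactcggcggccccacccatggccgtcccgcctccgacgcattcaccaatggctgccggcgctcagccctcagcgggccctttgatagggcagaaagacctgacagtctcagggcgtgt
Cd5 (chr19:10739027-10739224, minus strand, likewise before the gene): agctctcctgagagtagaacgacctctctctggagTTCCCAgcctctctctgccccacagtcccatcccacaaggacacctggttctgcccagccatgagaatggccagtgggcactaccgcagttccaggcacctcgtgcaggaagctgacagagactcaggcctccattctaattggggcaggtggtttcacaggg
The Fyn window held 0 matches and the Cd5 window 1. Windows of 300 bases around annotated starts were available for 28 of the 35 members, some with several starts, and 10 of these genes (35.7%) had a match in at least 1 window, against 28.3% of all 27025 genes with a window. These matches describe letters in the reference genome, and binding was not measured.

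The other kinases did not pass. Zap70, the kinase that docks on phosphorylated CD3 chains, was at 9.85 and 9.68 on the Cre+ arrays and at 9.69 and 9.88 on the Cre- arrays, so that the groups covered the same range. Csk, whose product phosphorylates the inhibitory tail of Src family kinases, was at 11.29 and 11.15 against 11.09 and 11.29, with the Cre+ mice first. These 2 genes differed by -0.02 (SE 0.10) and 0.03 (SE 0.09). Of the TEC family kinases, which activate phospholipase C gamma, Tec differed by 0.03 (SE 0.10). Txk was at 7.01 and 6.95 on the Cre+ arrays against 7.11 and 7.33 on the Cre- arrays, without overlap, and its difference of -0.24 (SE 0.12) had an adjusted p = 0.867 with limma. Over the 5 measured kinases 3 means were higher and 2 lower, with a median difference of 0.03.

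Among the 8 adaptors, 3 means were higher and 5 lower, with a median difference of -0.02, and 0 passed either test. The core scaffold genes differed little: Lat by 0.06 (SE 0.07), Lcp2, which encodes SLP-76, by -0.03 (SE 0.05), and Grap2, whose product GADS joins them, by -0.02 (SE 0.05). Themis, needed for the positive selection of thymocytes, differed by 0.02 (SE 0.05) and Pag1, a membrane anchor for CSK, by 0.03 (SE 0.07). Sit1, a transmembrane adaptor that dampens signalling, differed by -0.09 (SE 0.08), and its groups overlapped.

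Trat1 and Grb2 were the 2 adaptor genes whose groups did not overlap. Trat1 encodes TRIM, a transmembrane adaptor that associates with the receptor complex, and was at 10.76 and 10.72 on the Cre+ arrays against 11.03 and 10.91 on the Cre- arrays. Its difference of -0.23 (SE 0.06, 1.17-fold) had an adjusted p = 0.530 over all probe sets and 0.172 in the restricted test with limma. Grb2, the adaptor that brings SOS to LAT, was at 8.82 and 9.01 on the Cre+ arrays and at 9.06 and 9.14 on the Cre- arrays, a difference of -0.18 (SE 0.10). The upper Cre+ and the lower Cre- value of Grb2 were nearly equal.

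The 4 enzymes gathered by the scaffolds had differences from -0.03 to 0.08 and none passed. Plcg1, the phospholipase that yields calcium-releasing inositol trisphosphate and diacylglycerol, differed by 0.08 (SE 0.08). Rasgrp1, the RAS exchange factor that diacylglycerol recruits, differed by 0.07 (SE 0.06) and the RAS exchange factor gene Sos1 by 0.05 (SE 0.14). Sos1 varied more within the groups than between them, with 8.95 and 9.22 on the Cre+ arrays and 8.90 and 9.18 on the Cre- arrays. Vav1, which encodes an exchange factor for RAC, was at 10.78 in both Cre+ mice and at 10.79 and 10.82 on the Cre- arrays; the groups did not overlap, yet the difference was -0.03 (SE 0.05).

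In the NF-kB branch all 3 measured genes had higher means in Cre+ cells, with a median difference of 0.10, and none passed. Malt1, the paracaspase of the CARMA1, BCL10 and MALT1 complex, was at 8.72 and 8.64 on the Cre+ arrays and at 8.31 and 8.51 on the Cre- arrays. The groups did not overlap, and the difference of 0.27 (SE 0.11, 1.20-fold) had an adjusted p = 0.764 over all probe sets and 0.419 in the restricted test with limma. Prkcq, which encodes protein kinase C theta upstream of that complex, was at 10.66 and 10.61 against 10.49 and 10.58, Cre+ mice first, a difference of 0.10 (SE 0.06). Bcl10 differed by 0.02 (SE 0.06), with overlapping groups. Among 16 other measured CARMA1 and NF-kB genes, from the pathway list used further on, 8 means were higher and 8 lower, with a median difference of -0.01.

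None of the 4 calcineurin and NFAT genes passed, and their median difference was 0.01. Ppp3ca, a catalytic subunit of calcineurin, the phosphatase that lets NFAT enter the nucleus, was at 8.68 and 8.75 on the Cre+ arrays against 8.98 and 9.08 on the Cre- arrays. Both Cre+ values were below both Cre- values, and the difference was -0.32 (SE 0.09, 1.25-fold), with an adjusted p = 0.544 over all probe sets and 0.187 in the restricted test with limma. Of the NFAT genes, Nfatc1 was at 9.46 and 9.34 on the Cre+ arrays against 9.15 and 9.32 on the Cre- arrays, a difference of 0.17 (SE 0.10). Nfatc2 and Nfatc3 each differed by 0.01 (SE 0.12 and 0.07), with overlapping groups.

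Of the 6 phosphatase and ubiquitin ligase genes, 3 means were higher and 3 lower, with a median difference of -0.01, and none passed. Ptprc encodes CD45, the receptor phosphatase that opens Src family kinases for activity. It was at 11.77 and 11.67 on the Cre+ arrays against 11.86 and 11.91 on the Cre- arrays, without overlap, and differed by -0.16 (SE 0.05, 1.12-fold; adjusted p = 0.566 over all probe sets and 0.209 in the restricted test, limma). Ptpn6, the gene of the inhibitory phosphatase SHP-1, differed by 0.05 (SE 0.08) and Ptpn22, which encodes a phosphatase partnered with CSK, by 0.06 (SE 0.07). The ubiquitin ligase genes Cbl and Cblb differed by 0.05 (SE 0.06) and -0.06 (SE 0.06), and Ubash3a, whose product binds CBL and restrains receptor signals, by -0.06 (SE 0.05). The small differences of Cblb and Ubash3a came with groups that did not overlap, because the mice of each group lay close together.

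The surface receptors had the widest spread of differences, from -0.52 for Cd2 to 0.40 for Cd5. Cd5 encodes a restraining receptor whose surface level follows the strength of receptor signals in thymocytes, and Cd6 encodes a related receptor. Cd5 was at 10.16 and 9.74 on the Cre+ arrays and at 9.44 and 9.65 on the Cre- arrays, and Cd6 at 9.90 and 9.62 on the Cre+ arrays and at 9.35 and 9.61 on the Cre- arrays. In both genes mouse 129 was high and mouse 131 low, and the other 2 mice lay close together. The differences of 0.40 (SE 0.16) for Cd5 and 0.28 (SE 0.14) for Cd6 had restricted adjusted p-values of 0.340 and 0.518 with limma. The difference of Cd5 ranged from 0.19 without mouse 129 to 0.61 without mouse 135. The restricted test called it in that last case, where the Cre+ group is mouse 129 alone and is assumed to vary like the Cre- mice. Cd6 differed by 0.14 without mouse 129 and by 0.15 without mouse 131.

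Cd2, which encodes an adhesion receptor that binds CD48 in the mouse, had the largest difference of any member. It was at 8.33 and 8.03 on the Cre+ arrays against 8.59 and 8.81 on the Cre- arrays, so that every Cre+ value was below every Cre- value. The difference of -0.52 (SE 0.14, 1.44-fold) had an adjusted p = 0.544 over all probe sets and 0.128 in the restricted test with limma. It ranged from -0.67 without mouse 129 to -0.37 without mouse 135, and the restricted test called it at -0.63 without mouse 131, where the Cre- group is 1 mouse assumed to vary like the Cre+ mice. Cd28, the main costimulatory receptor, and Cd27, a costimulator of the tumour necrosis factor receptor family, differed by 0.04 (SE 0.08) and -0.05 (SE 0.07), with overlapping groups.

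**Figure D2:**
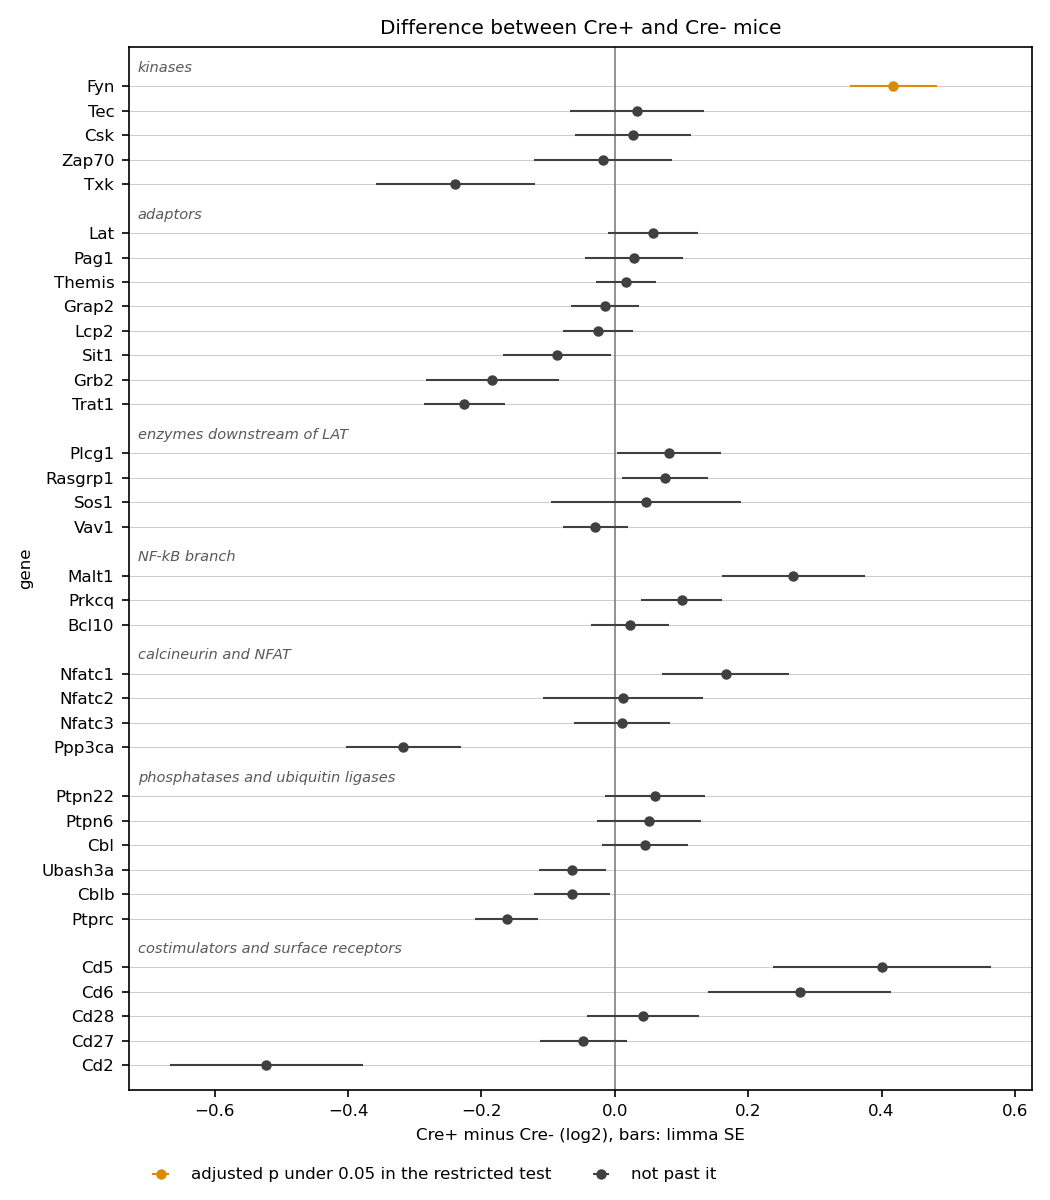
Difference between Cre+ and Cre- mice (log2, x axis) for each of the 35 members, grouped by role down the y axis, with limma's standard error as bars and 2 mice a group. Fyn (0.42, orange) passed the restricted test; Cd5 (0.40) and Cd2 (-0.52) were of similar size with wider errors and did not.

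Within each group the members did not scatter evenly around 0. In the Cre- group 32 of the 35 members were lower in mouse 131 than in mouse 137, with a median difference of -0.12, against 48.6% of all genes. In the Cre+ group 29 of 35 were higher in mouse 129 than in mouse 135, with a median of 0.06, against 50.7% of all genes. Among the 9567 genes with a mean within the members' range of values, the same shares were 62.8% and 43.0%, and among the other pathway genes they were 73.3% and 56.3%. For 20 members (57.1%) mouse 131 had the lowest of the 4 values, as it had for 24.3% of all genes, 34.5% of the genes within that range and 39.3% of the other pathway genes listed further on. The genes that went against this order in the Cre- group were Fyn, Trat1 and Ubash3a. These counts describe single mice, were made after the values were seen and have no test. The summed linear values of 6 markers of the DN2 and DN3 stages were 5685 and 5076 in mice 129 and 135 (Cre+) and 5549 and 4463 in mice 131 and 137 (Cre-), and those of 5 markers of double-positive thymocytes were 6594 and 6926 in the first pair and 6996 and 7643 in the second. The DN2 and DN3 sum holds Hes1, a NOTCH target gene that was called between the groups as higher in Cre+. Without it the sums were 3249 and 2649 in the Cre+ pair and 4242 and 3185 in the Cre- pair. The other 5 markers of this list all had lower means in Cre+, and Il2ra had the highest values among them. The part of these markers in the order of the mice was not tested.

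The direction of the members as a group therefore differed with the mice compared. Of the 35 members, 26 were higher in mouse 129 than in mouse 131 (median 0.09) and 21 were higher in mouse 135 than in mouse 131 (median 0.03). Against mouse 137 the majority was on the other side, with 14 higher in mouse 129 (median -0.03) and 7 higher in mouse 135 (median -0.06). Between 45.6% and 49.0% of all genes were higher in the Cre+ mouse in these 4 comparisons, which share their mice. The median gap between the mice of a group over the members was 0.08 in Cre+ and 0.12 in Cre-, beside a median size of 0.06 for the difference between the groups. Over all genes these medians were 0.07, 0.09 and 0.06. The difference between the groups exceeded both gaps for 11 of the 35 members, against 25% of all genes: Fyn, Malt1, Nfatc1 and Prkcq with higher means, and Cd2, Ppp3ca, Txk, Trat1, Ptprc, Cblb and Ubash3a with lower means.

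**Figure D3:**
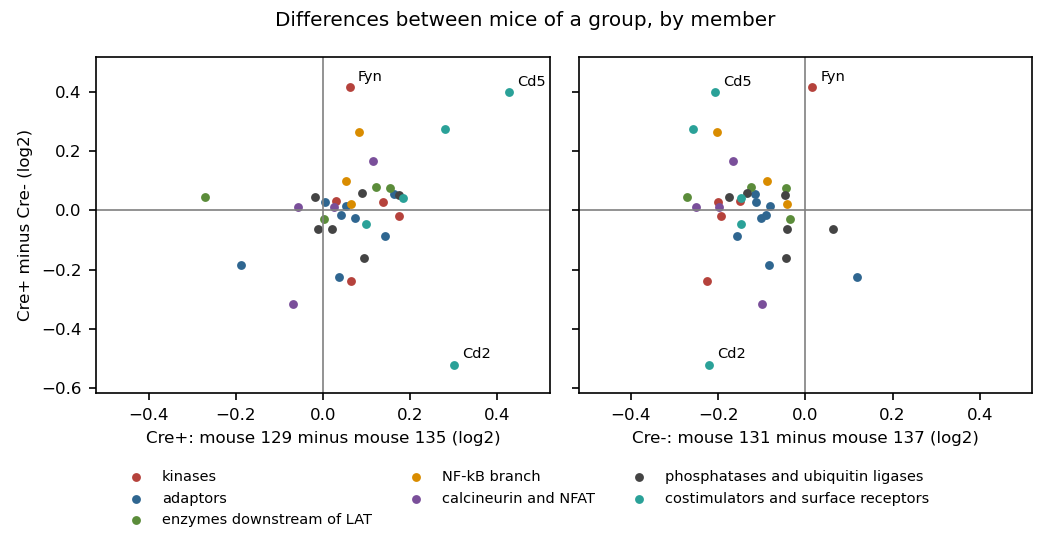
Each of the 35 members is a point, with the difference between the groups (Cre+ minus Cre-, log2) on the y axis and the difference between the 2 mice of a group (log2) on the x axis, Cre+ in the left panel and Cre- in the right. In the right panel 32 points lie left of 0, and Fyn lies at the top near 0 in both panels, while Cd5 and Cd2 lie away from 0 on both axes.

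Other genes of the pathway were taken from a list of 149 symbols, of which 135 were measured; 1 of the rest, Rlk, is an older name of Txk. In the restricted test 5 of the 135 passed, all higher in Cre+ cells; of all its probe sets 1.22% passed in either direction and 0.936% as higher. Over all probe sets 0 of the 135 passed with limma and 30 had an unadjusted p under 0.05 (22.2%, against 6.86% of all genes and 6.63% of all probe sets). The 8 receptor chain and coreceptor genes gave 7 of these 30. The 5 were the CD3 chain genes Cd3d (0.66, SE 0.08), Cd3g (0.37, SE 0.05) and Cd3e (0.25, SE 0.04), Nf1 (0.56, SE 0.10) and Spry2 (0.60, SE 0.11), with adjusted p-values from 0.00432 to 0.0357 in limma. All 8 measured receptor chain and coreceptor genes had groups that did not overlap, 5 above and 3 below, against 36.4% of all genes. The list was chosen with earlier results of these data known, so these shares describe the list and are not a test of the pathway. Its genes Cd4, Cd8a and Cd8b1 are also among the double-positive thymocyte markers above. Without an intensity trend in the variance, none of the 5 calls remained (0 of the 135).

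Nf1 and Spry2 both encode restraints on RAS, which the receptor activates through RASGRP1 and SOS. Nf1, whose product neurofibromin speeds the return of RAS to its inactive form, was at 9.65 and 9.74 on the Cre+ arrays against 9.03 and 9.24 on the Cre- arrays. Spry2, which encodes a Sprouty inhibitor of RAS and MAP kinase signalling, was at 7.18 and 7.22 on the Cre+ arrays against 6.69 and 6.52 on the Cre- arrays. In both genes the Cre+ mice lay closer to each other than to either Cre- mouse. The list of 18 measured RAS and MAP kinase genes had 11 higher and 7 lower means, with a median of 0.07. Without mouse 129, neither gene passed the restricted test.

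The genes next in line by p-value did not pass with the deposited values, though some did under alternatives. Prkch and Cd4 were called after centring and after quantile normalization, Cd4 after cyclic loess, Prkch among probe sets above the 25th percentile, and Prkch, Cd4 and Plcg2 among those above the median. Prkch, which encodes protein kinase C eta, was at 11.57 and 11.53 on the Cre+ arrays against 11.33 and 11.31 on the Cre- arrays (0.23, SE 0.04, restricted adjusted p = 0.0563 with limma). Plcg2, the phospholipase C gamma isoform best known from B cells, was at 7.87 and 7.95 on the Cre+ arrays against 8.51 and 8.34 on the Cre- arrays (-0.51, SE 0.11, restricted adjusted p = 0.0642 with limma). Ptcra, the gene of the pre-T cell receptor alpha chain, differed by 0.33 (SE 0.07) and Cd4 by 0.54 (SE 0.11), with restricted adjusted p-values of 0.0891 and 0.0635 in limma. Over the whole list of other pathway genes, 62 means were higher and 73 lower, with a median of -0.01. Groups did not overlap for 49.6% of these genes, against 36.4% of all genes.

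**Figure D4:**
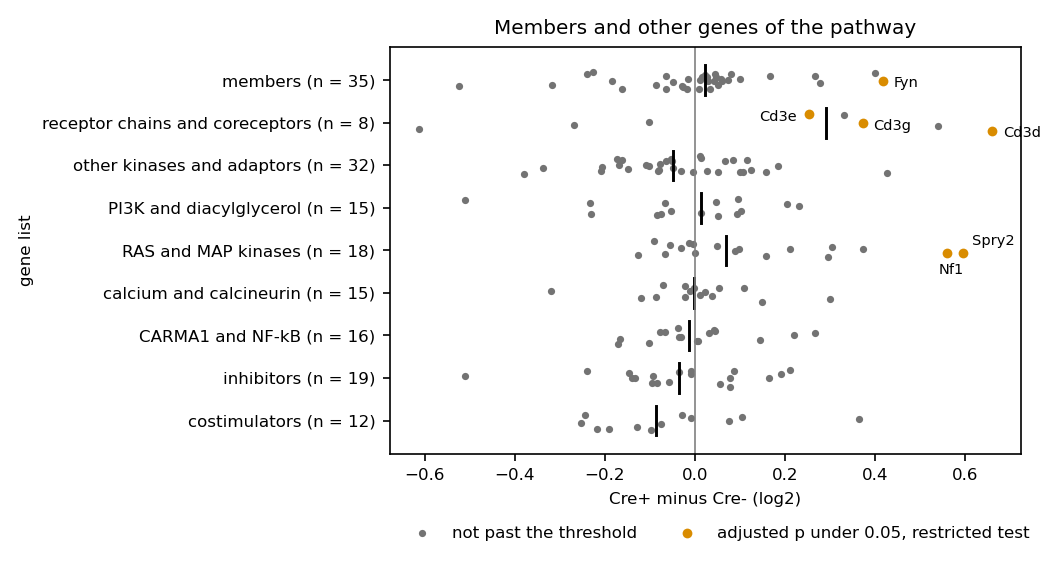
Difference between Cre+ and Cre- mice (log2, x axis) for the members (top row) and for the other pathway genes by list (rows below), 1 point a gene, with the median of each row as a black bar and points spread vertically for legibility. Orange points passed the restricted test: Fyn among the members, Cd3d, Cd3g and Cd3e among receptor chains, and Nf1 and Spry2 among RAS and MAP kinase genes.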

How the data were processed

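Sorted DN4 cells gave total RNA, which was biotin-labelled in 2 cycles for Affymetrix mouse gene arrays (1 for each mouse; per the labels' protocols, with differing RNA input that is not tied to mice). The deposited log2 values were made by the authors with RMA, according to the submitters' processing notes. Their log2 scale was read from the range of 3.14 to 14.4; the sources used here give neither the RMA version nor any filter. They were used without further normalization. Titles gave each sample's Cre status, and 0 sample columns went unused.

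Rows were named through the platform annotation: 21789 probe sets had 1 symbol, 1621 several and 12146 none listed. Of the first, 21698 were found by gene number in RefSeq, where 0 symbols differed. limma 3.58.1 (R 4.3.3; lmFit, eBayes with an intensity trend) compared Cre+ with Cre- over all 35556 probe sets with Benjamini-Hochberg adjustment and a threshold of 0.05, and again over those with 1 symbol (2 residual, 2.99 and 6.12 prior degrees of freedom). SEs are from the fit over all probe sets. With 2 against 2 mice an exact two-sided permutation test cannot go below p = 0.333, and the p-values given depend on the variance that limma pools over probe sets. The test was also run on simulated arrays whose noise followed limma's own variance model and whose seeded changes were larger than any member's difference. That run does not bear on differences of the size reported here.

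The members, classes and lists were chosen with earlier results of these data known. All members are named. Of the other pathway genes, those passing the restricted test were named, with up to 10 more at an unadjusted p under 0.01 over all probe sets and without overlap. Alternatives were other normalizations, removal of probe sets below the 25th percentile or the median, other variance models, array weights, the mean of a gene's rows, and leaving out each mouse.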

Additional observations from a re-analysis of the deposited data

How the results depend on the processing

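No member passed over all probe sets under any alternative on that set of probes. Other normalizations and array weights turned the direction of no member. Filters and variance models leave a member's difference as it is, so they could not turn it. Nor could the mean of a gene's rows, because each measured member had 1 row. When the test over all probe sets was replaced by the restricted one, 1 member passed, 8 had an unadjusted p under 0.05, and 266 probe sets passed in all, where the test over all probe sets called 0; that setting tests fewer probe sets and takes its variance prior from them. Over all probe sets, 10 passed after centring of the arrays, 25 with probe sets above the 25th percentile and 80 with those above the median; in the restricted test 8 other pathway genes passed above the median. Without an intensity trend the restricted test called 0 members, 0 other pathway genes and 130 probe sets in all; the cause was not tested.

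Leaving out 1 mouse moved more; the lone mouse of a group is then assumed to vary like the other group. Restricted calls ranged from 0 to 2 members (0 without mouse 129; Fyn and Cd2 without mouse 131; Cd5 without mouse 135), from 3 (without mouse 129) to 8 (without mouse 131 or 137) other pathway genes and from 138 (without mouse 129) to 480 (without mouse 131) probe sets. The members without overlap numbered 21 to 30, more in each case because a group then has 1 mouse. The median of the members ranged from -0.04 (without mouse 131) to 0.09 (without mouse 137), and was -0.02 without mouse 129. Class medians ranged from -0.073 to 0.11 for kinases, -0.014 to 0.12 for enzymes at the scaffolds, -0.10 to 0.12 for calcineurin and NFAT, -0.049 to 0.13 for surface receptors, -0.068 to 0.027 for adaptors, -0.046 to 0.016 for phosphatases and ubiquitin ligases, and 0.056 to 0.14 for the NF-kB branch. Directions turned with 1 mouse left out for 18 members, whose differences ranged from -0.0095 to 0.054 (Bcl10), -0.042 to 0.13 (Cbl), -0.12 to 0.027 (Cd27), -0.049 to 0.13 (Cd28), -0.073 to 0.13 (Csk), -0.060 to 0.029 (Grap2), -0.023 to 0.14 (Lat), -0.076 to 0.025 (Lcp2), -0.11 to 0.14 (Nfatc2), -0.089 to 0.11 (Nfatc3), -0.028 to 0.086 (Pag1), -0.0067 to 0.13 (Ptpn22), -0.035 to 0.14 (Ptpn6), -0.0014 to 0.15 (Rasgrp1), -0.090 to 0.18 (Sos1), -0.042 to 0.11 (Tec), -0.024 to 0.057 (Themis) and -0.11 to 0.079 (Zap70). The other 17 kept theirs, but 12 of them moved by over 1.5 times with 1 mouse left out, among them Txk (-0.35 to -0.13), Grb2 (-0.28 to -0.089), Malt1 (0.17 to 0.37), Nfatc1 (0.083 to 0.25), Prkcq (0.056 to 0.14) and Ubash3a (-0.095 to -0.032). The order of mice within groups was recomputed under scalings chosen after seeing the data: 30 to 32 members were lower in mouse 131 than in mouse 137, and 29 to 31 higher in mouse 129 than in mouse 135. No paired analysis was run because the labels do not tie any Cre+ mouse to a Cre- mouse, so whether the mice were paired is not known. With 2 arrays a group, small differences could not be detected.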
